A study of Mus musculus with 12 samples.

Results

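The genes described here encode the motor and scaffold of motile cilia and flagella, together with their regulator Foxj1, in mouse breast tumours. They were chosen as the protein-coding genes of the count table whose symbol begins with Dnah, Dnai, Cfap or Rsph, or is Foxj1 or Mcidas, which gave 60 of 55487 genes. There were 15 Dnah genes, 2 intermediate chain genes listed under the symbols Dnaic1 and Dnaic2, 33 Cfap genes, 8 Rsph genes, Foxj1 and Mcidas. RNA was measured in breast tumours of 6 C57BL/6J mice carrying Bad3SA, a form of the pro-apoptotic BCL2 family protein BAD whose regulatory serines cannot be phosphorylated, and of 6 mice with wild-type Bad (Bad_WT). All 12 mice carried MMTV-PyMT, a transgene that expresses the middle T antigen of polyomavirus from a promoter active in mammary epithelium, and each library was 1 mouse. At end point the Bad3SA mice were 22.857 to 31.143 weeks old and the Bad_WT mice 21.286 to 27.143 weeks, with medians of 27.9 and 23.9 weeks. Effects of genotype and of the greater age of Bad3SA mice are thus only partly separable.

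A motile cilium is built on a ring of microtubule doublets around a central pair. Outer and inner dynein arms on the doublets slide them past each other, radial spokes and the central apparatus steer that motion, and tethers and proteins inside the doublets hold the lattice together. In multiciliated epithelia such as airway, oviduct and ependyma, multicilin (Mcidas) acts early in the differentiation. The forkhead factor FOXJ1, with RFX factors, turns on the genes of the axoneme. Mammary epithelium is not a multiciliated tissue, and some cells of the mammary gland carry a single non-motile primary cilium.

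Promoters are shown first for Cfap43, Dnah17, Cfap20 and Cfap298, because the first pair had large differences between the genotypes and the other pair was among the more abundant members and held the letters that RFX and forkhead factors are known to bind. Each line gives the 250 bases before the start annotated by RefSeq on GRCm38.p6, 5′ to 3′ on the strand of the gene, which is the minus strand for all 4. They lie at chr19:47837362-47837611 for Cfap43, chr11:118129220-118129469 for Dnah17, chr8:95434870-95435119 for Cfap20 and chr16:90934850-90935099 for Cfap298. Capitals mark the motif matches: forkhead (TGTTTAC, read on the other strand as GTAAACA) in the first 3, a single arm of the X-box (GTTNCCATG) in Cfap20, and the full palindromic X-box in Cfap298.
Cfap43: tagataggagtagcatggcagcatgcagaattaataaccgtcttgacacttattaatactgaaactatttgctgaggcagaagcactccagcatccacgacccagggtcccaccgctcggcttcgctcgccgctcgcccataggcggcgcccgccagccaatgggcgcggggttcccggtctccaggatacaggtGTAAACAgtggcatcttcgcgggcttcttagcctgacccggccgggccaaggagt
Dnah17: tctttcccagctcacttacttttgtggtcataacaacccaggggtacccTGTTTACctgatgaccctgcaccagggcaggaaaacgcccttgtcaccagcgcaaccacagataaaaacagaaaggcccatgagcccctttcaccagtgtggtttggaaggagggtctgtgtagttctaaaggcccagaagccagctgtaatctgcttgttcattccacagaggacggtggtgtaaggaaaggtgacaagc
Cfap20: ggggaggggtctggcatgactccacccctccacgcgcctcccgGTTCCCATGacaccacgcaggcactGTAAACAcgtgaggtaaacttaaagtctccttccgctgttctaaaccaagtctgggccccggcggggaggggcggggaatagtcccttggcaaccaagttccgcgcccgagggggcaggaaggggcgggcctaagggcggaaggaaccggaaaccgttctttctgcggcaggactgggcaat
Cfap298: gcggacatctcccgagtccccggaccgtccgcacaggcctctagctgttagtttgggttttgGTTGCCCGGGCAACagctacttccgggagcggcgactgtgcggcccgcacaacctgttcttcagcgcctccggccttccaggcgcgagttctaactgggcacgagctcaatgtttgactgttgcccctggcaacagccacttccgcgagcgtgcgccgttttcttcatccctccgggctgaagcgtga

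RefSeq windows running from 250 bases before to 50 bases after the start were found for 48 of the 60 members, 52 windows in all, and both strands were searched. The forkhead letters were in 3 member windows (5.77%), those of Cfap20, Cfap43 and Dnah17, and in 3.65% of the 32851 windows of all genes. The single X-box arm was in 7 member windows (13.5%), of Cfap161, Cfap20, Cfap52, Cfap97d2, Dnah5 and both overlapping windows of Cfap74, and in 1.93% of all windows. The full X-box was in 1 member window, that of Cfap298 (1.92%), and in 0.451% of all windows. The arm can lie inside a full X-box, and none did here. A match is a description of letters and not a site, and no window was listed for Foxj1.

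Total counts ran from 58096172 in Bad3SA 5 to 83296370 in Bad_WT 2, so that 3 counts were worth 0.0346 to 0.0544 CPM (the count scaled to the library size, with TMM factors). Of the 60 members, 39 passed the filter on low counts, namely 10 Dnah, both intermediate chain, 21 Cfap and 5 Rsph genes and Foxj1. The other 21 were not tested, although each had at least 1 read, and their highest count in any tumour ran from 1 in Cfap97d2 to 30 in Cfap57. These were Mcidas, Dnah3, Dnah5, Dnah7a, Dnah9, Dnah12, Rsph4a, Rsph6a, Rsph14, Cfap52, Cfap57, Cfap58, Cfap61, Cfap65, Cfap73, Cfap97d1, Cfap97d2, Cfap161, Cfap206, Cfap221 and Cfap299. Bad3SA 4 was the highest tumour for 11 of the 39 tested members and Bad3SA 5 for 8, and Bad_WT 6 was the lowest for 11. The summed CPM of all Dnah genes ran from 4.13 through a median of 6.05 to 14.6 in Bad3SA tumours and from 4.53 through 6.17 to 8.73 in Bad_WT tumours. By the tallies of highest and lowest values, Bad3SA 4, with the 14.6 CPM, Bad3SA 5 and Bad_WT 6 stood apart. The Dnah sums of Bad3SA 5 and Bad_WT 6, 4.97 and 4.66 CPM, lay inside the ranges of their groups. The tallies were not made over all genes, so whether they are particular to the members is not known.

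Most members were at low levels in tumours of both genotypes, although 36 of the 60 had more than 3 counts in every tumour. Both group means were below 1 CPM for 38 members, and 8 members reached 10 CPM in either mean. The 6 most abundant, Cfap410, Cfap20, Cfap36, Cfap97, Rsph3b and Rsph3a, held 75.7% of the summed CPM of all members. On a scale of CPM per kb of exon, which allows levels to be compared between genes, Cfap36 was highest at 15.7 in Bad3SA and 13.6 in Bad_WT, followed by Cfap20 at 10.3 in Bad3SA and 9.68 in Bad_WT. Below them Cfap410 was at 7.76 in Bad3SA and 5.86 in Bad_WT, Rsph9 at 6.63 in Bad3SA and 5.66 in Bad_WT, and Rsph3b at 5.85 in Bad3SA and 6.11 in Bad_WT, in an order that differed between the genotypes. CFAP36 binds the small GTPase ARL3, and CFAP20 sits at the inner junction of the doublet. Foxj1 stood at 1.80 CPM per kb in Bad3SA and 4.07 in Bad_WT. No dynein heavy chain exceeded 0.102 CPM per kb in either mean, a value reached by Dnah11 in Bad3SA.

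**Figure D1:**
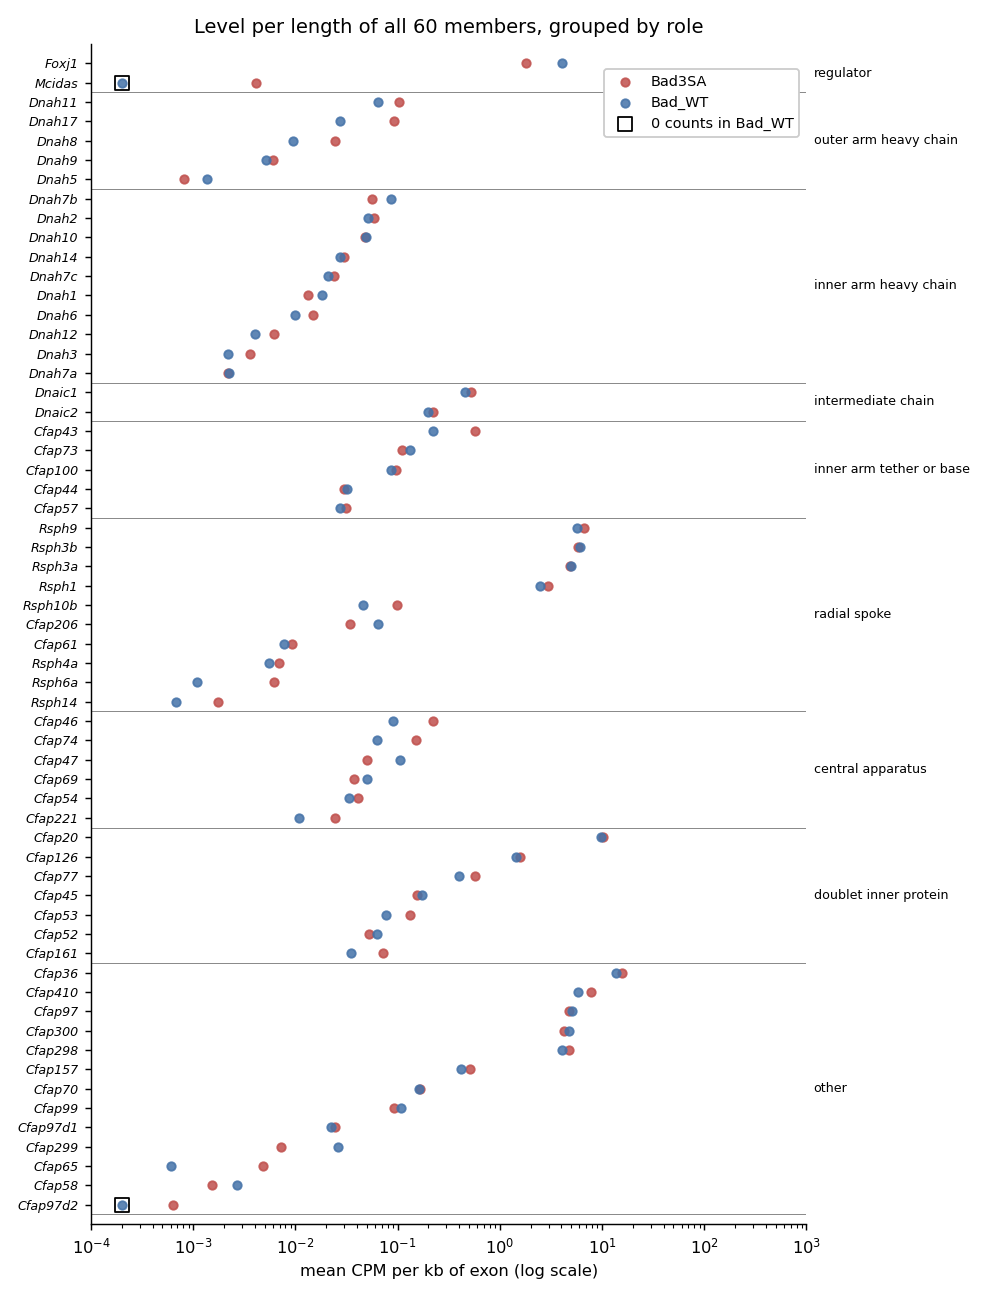
Mean CPM per kb of exon (log scale) of all 60 members, grouped by role, for Bad3SA and Bad_WT tumours (n = 6 each); squares mark members with 0 counts in every Bad_WT tumour, drawn at the left edge. Cfap36 at 15.7 and Cfap20 at 10.3 in Bad3SA lie far to the right of every dynein heavy chain, none of which exceeds 0.102.

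The regulator Foxj1 fell in Bad3SA tumours. Foxj1 (ENSMUSG00000034227, GRCm38 chromosome 11, 116330704 to 116335399, minus strand, with no other gene overlapping it) had 3.03 CPM in the lowest Bad3SA tumour, a median of 3.79 and 7.06 in the highest, against 6.50, 10.7 and 14.7 CPM in Bad_WT tumours. Bad3SA 1 to 4 lay below every Bad_WT tumour, while Bad3SA 5 and 6, from mice of 31.143 and 28.714 weeks, lay above Bad_WT 1. The means were 4.72 ± 1.79 CPM in Bad3SA and 10.7 ± 2.89 CPM in Bad_WT (SD, n = 6 each). The log2 fold change of Bad3SA over Bad_WT was -1.18 (SE 0.26, edgeR quasi-likelihood test, adjusted p = 0.0473 over 18019 genes). An exact two-sided permutation test of log2 CPM over 924 splits gave an unadjusted p of 0.00649. Foxj1 was chosen with its fall in these same tumours known, so the permutation p is a description and no independent support. The adjusted p lies close to the threshold of 0.05. It ran from 0.0309 to 0.124 when each tumour was left out in turn, the call being lost in 9 of 12 fits (without Bad3SA 1, 2, 3 or 4, or without Bad_WT 2, 3, 4, 5 or 6), and it was 0.0829 with end-point age in the model, where the log2 fold change was -1.57. The authors' deposited table, which gives Bad_WT over Bad3SA, lists Foxj1 at log2 1.08 with an adjusted p of 0.000782. At the threshold of 0.05 that table calls 952 genes from the same tumours, against 249 in the edgeR test. Of the 51 members with an adjusted p there, it calls 4. In bulk tumour, fewer cells of a type and less RNA per cell cannot be told apart.

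Mcidas, an early regulator of the multiciliated programme, was at the limit of detection. It had 4 reads over the 6 Bad3SA tumours (1 in Bad3SA 3, 1 in Bad3SA 4 and 2 in Bad3SA 6) and 0 reads over the 6 Bad_WT tumours, and was not tested. Of 20 markers of multiciliated cells listed for comparison, 19 were in the table, 9 were tested and 1, Foxj1 itself, passed. Their summed CPM ran from 16.4 to 39.1 in Bad3SA tumours and from 22.7 to 51.5 in Bad_WT tumours. Levels differed widely within the list. Sntn, which encodes sentan of the ciliary tip, had 0 counts in all 12 tumours, and Sec14l3 and Fam216b had at most 1 and 2 counts in any tumour. Tppp3, a tubulin-binding protein gene, averaged 12.2 ± 9.21 CPM in Bad3SA and 9.18 ± 9.87 CPM in Bad_WT, and Ccdc39, of the molecular ruler, 3.05 ± 2.10 CPM in Bad3SA and 2.54 ± 0.67 CPM in Bad_WT (SD, n = 6 each). The 8 tested markers other than Foxj1 had log2 fold changes in both directions, 5 positive and 3 negative, from -1.48 in Lrriq1 (edgeR adjusted p = 0.186) to the highest in Odf3b, with Cdhr4 at 1.44 and Ccdc153 at 1.19. Odf3b averaged 0.377 ± 0.154 CPM in Bad3SA and 0.123 ± 0.0676 CPM in Bad_WT (edgeR adjusted p = 0.111). Of 20 testis germ cell genes, 5 were tested, none passed, and 8 had at most 3 counts in every tumour.

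No gene near Foxj1 on chromosome 11 was called lower with it. Within 500 kb, 40 genes were tested, with a median log2 fold change of 0.14. Of these, 4 passed and all were higher in Bad3SA, namely St6galnac2, Gm11735, BC018473 and St6galnac1, which lie 339.904 to 429.626 kb away. A second entry under the symbol St6galnac2, 342.084 kb away, did not pass (log2 fold change 1.29, SE 0.55, edgeR adjusted p = 0.273). Over all genes 1.38% passed, 0.622% higher and 0.76% lower. At that share of lower genes, none among 40 is a likely outcome for any stretch. The nearest tested gene, the ubiquitin ligase gene Rnf157, had a log2 fold change of -0.43 (adjusted p = 0.486).

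No tested member other than Foxj1 passed in the edgeR test. In all, 249 of 18019 genes passed (1.38%), 137 lower (0.76%) and 112 higher (0.622%) in Bad3SA. Among the 39 tested members 1 passed. DESeq2 called 4 members, Foxj1 lower and Cfap43, Dnah8 and Dnah17 higher, with 4.11% of all genes called. The voom fit called 3, Foxj1, Cfap43 and Dnah8, with 3.18% of all genes called, and the fit with end-point age called 0 members, with 0.405% of all genes called. The log2 fold change was positive for 26 of 39 members (66.7%) and negative for 13, against 50.4% positive over all genes, and the median was 0.18, against 0.00 over all genes. The median absolute log2 fold change was 0.23 among members and 0.23 over all genes. An unadjusted p under 0.05 was seen for 7 members, 2 lower and 5 higher, against 16.2% of all genes. The median over members was 0.0054 without Bad3SA 5, 0.0688 without Bad_WT 6, 0.11 without Bad3SA 4, 0.12 without Bad_WT 4, and -0.0935 once age at the end point was a covariate, so the excess of positive values was not stable.

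**Figure D2:**
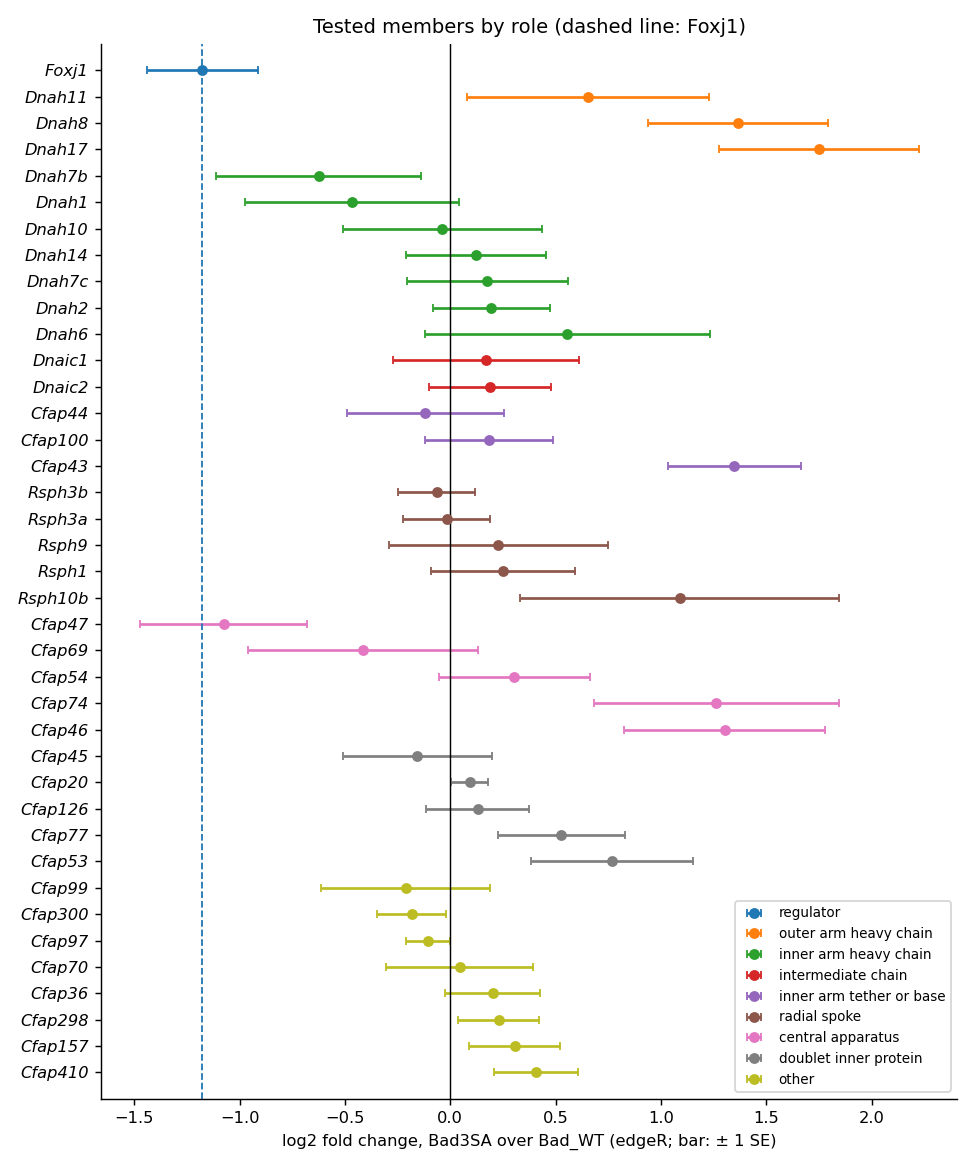
Log2 fold change of Bad3SA over Bad_WT (points) with 1 SE (bars) for the 39 tested members, coloured by role and sorted within it; the solid line is 0 and the dashed line is Foxj1 at -1.18. Every other member lies to the right of the dashed line, Cfap47 at -1.08 being the nearest and Dnah17 at 1.75 the farthest.

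Each gene was also set directly against Foxj1 by testing the log2 ratio of the gene to Foxj1 within each tumour. Of 38 members, 32 (84.2%) differed from Foxj1 in their response to genotype (limma, adjusted p under 0.05), and all 32 lay above it. Over all genes the share was 84.6%, or 84.4% counting those above Foxj1, which is close to the share of members. The median difference in log2 change, member minus Foxj1, was 1.35 among members and 1.21 over all genes. The error of Foxj1 itself enters every one of these differences. A difference from Foxj1 was not shown for Cfap47 (0.04, SE 0.50, limma adjusted p = 0.938), Cfap69, Dnah1, Dnah10, Dnah7b and Cfap45, the last at an adjusted p of 0.0531.

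Outer arm dyneins, which supply most of the power of the beat, held the highest positive log2 fold changes among the heavy chains. Of 5 heavy chain genes 3 were tested, all 3 were positive and none passed, with a median log2 fold change of 1.37. Dnah17, known for the outer arm of the sperm flagellum, had 0.436, 1.49 and 3.14 CPM (lowest, median, highest) in Bad3SA tumours, against 0.232, 0.455 and 0.645 CPM in Bad_WT tumours. Bad3SA 1, 3, 4 and 6 exceeded every Bad_WT tumour, while Bad3SA 2 and 5 lay within the Bad_WT range. The log2 fold change was 1.75 (SE 0.47, edgeR adjusted p = 0.101), and its difference from Foxj1 was 2.63 (limma adjusted p = 0.000604). Dnah8, another outer arm chain known from the sperm flagellum, had 0.363, 0.762 and 0.847 CPM in Bad3SA tumours, against 0.0653, 0.253 and 0.491 CPM in Bad_WT tumours. Again 4 Bad3SA tumours exceeded all Bad_WT tumours and Bad3SA 1 and 5 did not. Its log2 fold change was 1.37 (SE 0.43, edgeR adjusted p = 0.153). The authors' deposited table lists Dnah17 at an adjusted p of 0.00676 and Dnah8 at 0.0335. Both thus pass there, where 952 genes pass, and not in the edgeR test, where 249 do.

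The outer arm chains that beat in airway cilia were scarce or uneven. Dnah11 had 0.399, 0.878 and 3.83 CPM in Bad3SA tumours, against 0.229, 0.888 and 1.69 CPM in Bad_WT tumours. The medians nearly coincided and the high mean of Bad3SA came from Bad3SA 4 at 3.83 and Bad3SA 6 at 2.31 CPM (log2 fold change 0.65, SE 0.58, edgeR adjusted p = 0.576). Without Bad3SA 4 that fold change was 0.12. Dnah5, whose loss is a common cause of primary ciliary dyskinesia, had at most 4 counts in any tumour, and Dnah9 at most 20. The intermediate chains of the outer arm, Dnaic1 and Dnaic2, which dock the heavy chains, were at 1.45 ± 0.48 and 1.02 ± 0.26 CPM in Bad3SA tumours and at 1.28 ± 1.03 and 0.897 ± 0.36 CPM in Bad_WT tumours. Their log2 fold changes of 0.17 and 0.19 were smaller than their SEs of 0.44 and 0.29. Bad_WT 1 alone had 3.25 CPM of Dnaic1, more than every Bad3SA tumour.

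**Figure D3:**
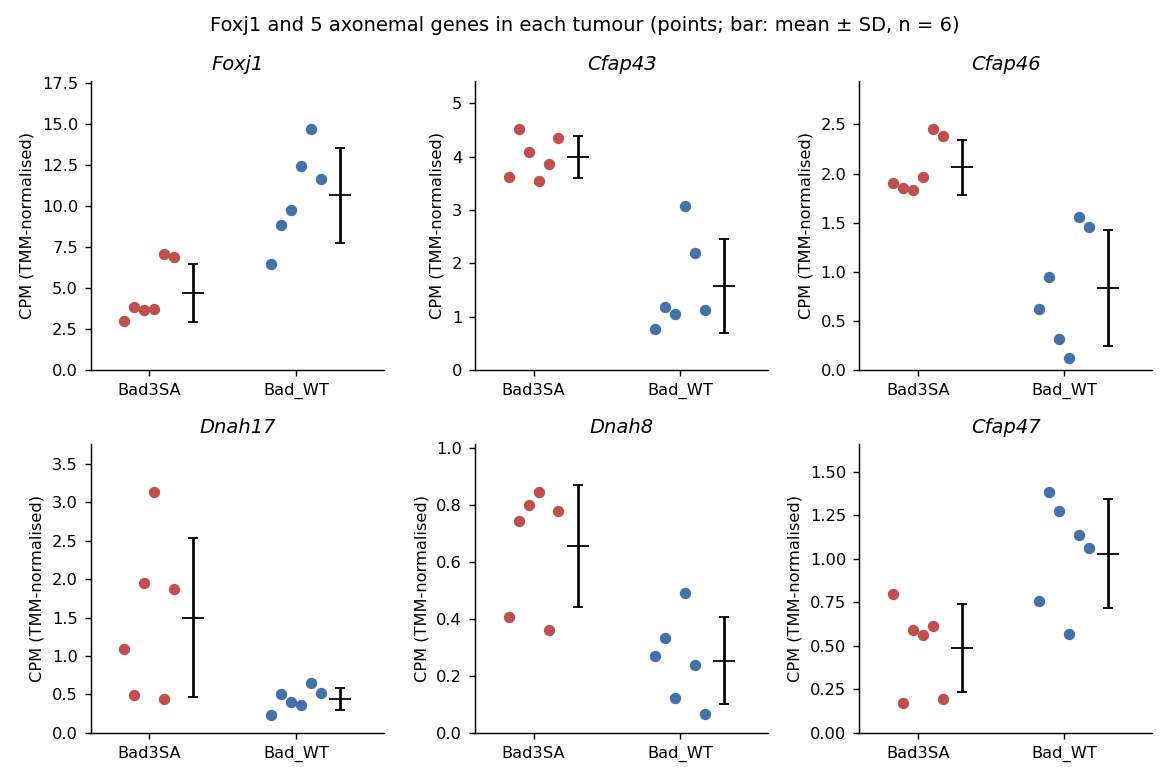
CPM of Foxj1, Cfap43, Cfap46, Dnah17, Dnah8 and Cfap47 in each Bad3SA and Bad_WT tumour (points), with the mean and SD (n = 6 each). All Bad3SA tumours lie above all Bad_WT tumours for Cfap43 and Cfap46, whereas Foxj1 is lower in Bad3SA apart from the overlap of Bad3SA 5 and 6 with Bad_WT 1.

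Inner arm heavy chains, which shape the bend of the beat, showed no common direction. Of 10 genes 7 were tested, 4 were positive and 3 negative, and the median log2 fold change was 0.12. The most negative was Dnah7b, with 0.463, 0.742 and 2.25 CPM in Bad3SA tumours, against 0.506, 1.55 and 2.97 CPM in Bad_WT tumours. The ranges overlapped widely, and the log2 fold change was -0.62 (SE 0.49, edgeR adjusted p = 0.525). It was -0.95 without Bad3SA 6. Dnah1 followed at -0.47 (SE 0.51, adjusted p = 0.653), and at -0.26 without Bad3SA 6 and -0.20 without Bad_WT 4. Dnah7a, Dnah7b and Dnah7c all lie on chromosome 1, the last pair side by side, and their transcripts are 96.9% to 97.3% identical, so reads could be divided between them. Dnah7c was at 0.18 (SE 0.38), and Dnah7a, with at most 7 counts, was not tested.

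The tether of the inner arm held the member with the smallest p after Foxj1. Cfap43 (ENSMUSG00000044948, chromosome 19, 47736857 to 47919287, minus strand) encodes, with Cfap44, the complex that ties the motor head of the I1 inner arm to the doublet, as described in Tetrahymena and Chlamydomonas. It had 3.54, 3.97 and 4.51 CPM in Bad3SA tumours, against 0.781, 1.15 and 3.07 CPM in Bad_WT tumours. Every Bad3SA tumour exceeded every Bad_WT tumour, and the highest Bad_WT value was that of Bad_WT 4. The log2 fold change was 1.35 (SE 0.32, edgeR adjusted p = 0.0578), just short of the threshold, and it was 2.69 above that of Foxj1 (limma adjusted p = 3.74e-05). With each tumour left out in turn, the edgeR adjusted p ran from 0.0092 to 0.153. It passed in 1 of 12 such fits, the one without Bad_WT 4. The authors' deposited table lists Cfap43 at an adjusted p of 0.00133, among 952 genes that pass there. Of its exonic bases 164 (2.32%) are shared with Itprip on the same strand, which had a log2 fold change of -0.83 (adjusted p = 0.220). Its partner Cfap44 was at -0.12 (SE 0.37) and had 0.251 ± 0.13 CPM in Bad3SA and 0.271 ± 0.097 CPM in Bad_WT.

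Central apparatus genes held the lowest log2 fold change of the Cfap set and, after Cfap43, its highest. Cfap46, known in Chlamydomonas as a component of a projection of the central pair, had 1.83, 1.93 and 2.45 CPM in Bad3SA tumours, against 0.119, 0.784 and 1.56 CPM in Bad_WT tumours. Here too the groups did not overlap, the closest values being 1.83 CPM in Bad3SA 3 and 1.56 CPM in Bad_WT 5. The log2 fold change was 1.30 (SE 0.48, edgeR adjusted p = 0.214). Cfap43 and Cfap46 were the 2 of 39 tested members whose ranges did not overlap, both higher in Bad3SA. Over all genes 2.23% had ranges that did not overlap, made up of 0.96% higher and 1.27% lower in Bad3SA.

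Cfap47, an X-linked central apparatus gene, had values near the fall of Foxj1. It had 0.171, 0.577 and 0.799 CPM in Bad3SA tumours, against 0.566, 1.10 and 1.39 CPM in Bad_WT tumours. Bad_WT 4 at 0.566 and Bad_WT 1 at 0.757 CPM lay inside the Bad3SA range (log2 fold change -1.08, SE 0.40, edgeR adjusted p = 0.215). Cfap74 had 0.399, 1.07 and 4.47 CPM in Bad3SA tumours, against 0.163, 0.508 and 1.09 CPM in Bad_WT tumours. Its log2 fold change of 1.26 (SE 0.58, adjusted p = 0.305) was 0.54 without Bad3SA 4, the tumour at 4.47 CPM. Cfap69 was at -0.42 (SE 0.55, adjusted p = 0.715), and between -0.76 without Bad3SA 4 and -0.12 without Bad_WT 3. The 5 tested genes of this group were thus 3 positive and 2 negative, and none passed.

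Among radial spoke genes 5 of 10 were tested, 3 positive and 2 negative, and none passed. Rsph9, of the spoke head, had 6.13, 7.15 and 25.8 CPM in Bad3SA tumours, against 1.75, 7.72 and 22.5 CPM in Bad_WT tumours. Bad3SA 5 and Bad_WT 3 were each far above the rest of their group and Bad_WT 6 far below, and the log2 fold change was 0.23 (SE 0.52, edgeR adjusted p = 0.846). Rsph1, also of the head, had 9.53 CPM in Bad3SA 5 and 2.25 to 3.76 CPM in the other Bad3SA tumours, against 2.64 to 4.45 CPM in Bad_WT tumours. Rsph3a and Rsph3b, which encode a stalk protein, were at -0.02 (SE 0.21) and -0.06 (SE 0.18). Their transcripts are at least 99.2% identical over 1823 bases, so their reads could not be kept apart with certainty. Rsph4a and Rsph6a, the alternative head proteins of cilia and sperm, had at most 4 and 5 counts in any tumour.

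Proteins that line the doublet, and Cfap genes of other or wider roles, held the most abundant members, and none passed. Cfap20 had 45.9 ± 2.17 CPM in Bad3SA and 43.1 ± 4.20 CPM in Bad_WT (log2 fold change 0.09, SE 0.09, edgeR adjusted p = 0.602). Cfap36 had 27.4, 39.3 and 69.7 CPM in Bad3SA tumours, against 30.3, 35.4 and 53.8 CPM in Bad_WT tumours (0.20, SE 0.23, adjusted p = 0.668). Cfap410, which works with the kinase NEK1, had 51.5 ± 14.7 CPM in Bad3SA and 38.8 ± 8.62 CPM in Bad_WT (0.41, SE 0.20, adjusted p = 0.333). Its Bad3SA values lay at 36.3 to 39.3 CPM in Bad3SA 1 to 3 and at 63.0 to 68.1 CPM in Bad3SA 4 to 6. Cfap97 was split the same way with the opposite sign, at 27.0 to 27.7 CPM in Bad3SA 1 to 3, 20.5 to 21.8 CPM in Bad3SA 4 to 6 and 25.2 to 27.0 CPM in Bad_WT tumours (-0.10, SE 0.10, adjusted p = 0.627). Cfap298 and Cfap300, needed for dynein arms to be assembled in the cytoplasm, were at 0.23 (SE 0.19) and -0.18 (SE 0.16). For Cfap298, 44.2% of the exonic bases overlap the antisense gene Gm49727, which averaged 0.126 CPM in Bad3SA and 0.0858 CPM in Bad_WT. The 13 tested members not described singly had log2 fold changes from -0.21 in Cfap99 to 1.09 in Rsph10b, with edgeR adjusted p-values from 0.341 in Cfap53 to 0.972 in Dnah10.

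**Figure D4:**
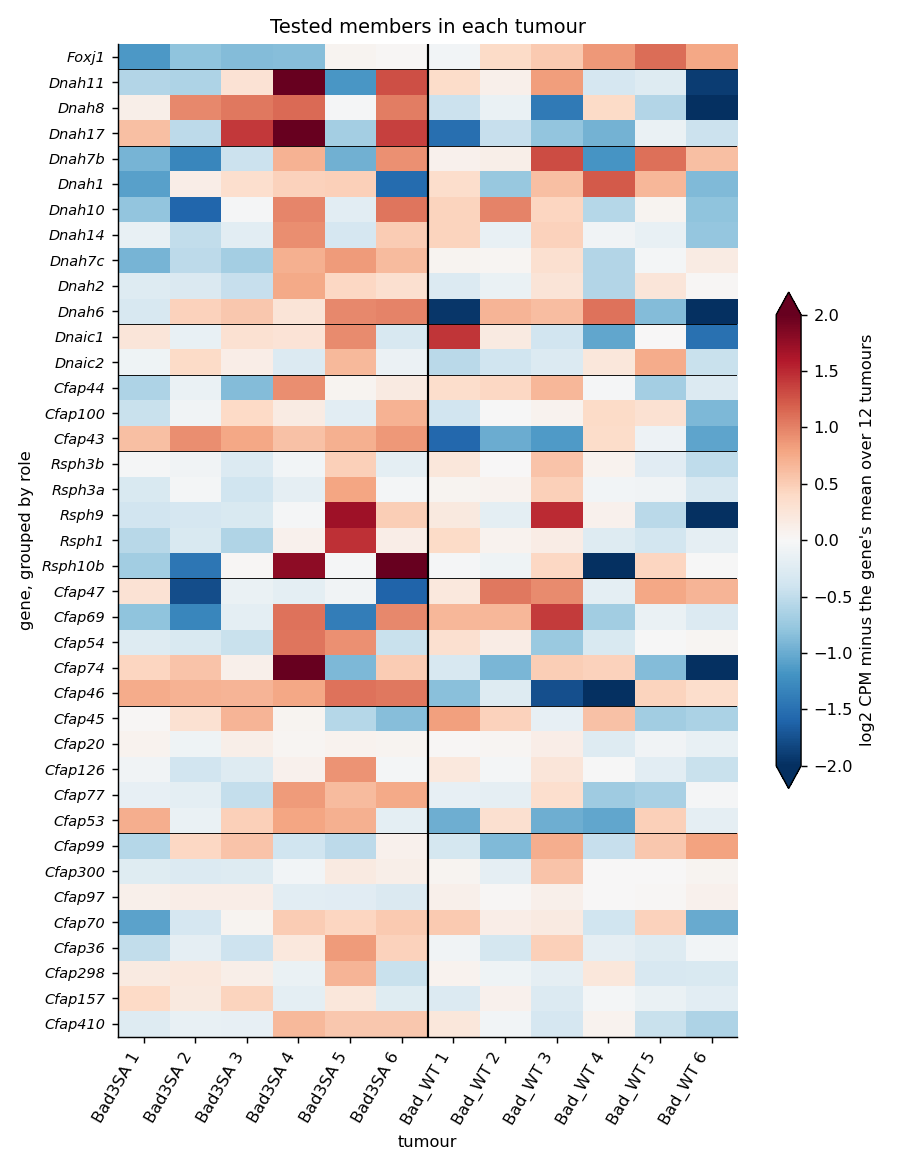
Log2 CPM of the 39 tested members in each tumour after subtracting the mean of the gene over 12 tumours, with genes grouped by role and Bad3SA tumours left of the vertical line. The first line shows Foxj1 low in Bad3SA 1 to 4, whereas other genes are high in single tumours, as in Bad3SA 4 (highest for 11 members) and Bad3SA 5 (8).

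Whether members varied with Foxj1 among tumours of the same genotype was examined by correlating log2 CPM after removing the mean of each genotype, with permutation within genotype. No member of 38 and no gene of 18018 passed after adjustment over all genes. The correlation was positive for 24 of 38 members (63.2%), with a median r of 0.119, against 51.2% and 0.0141 over all genes. The highest values were those of Dnaic2 (r = 0.590, rho = 0.573, permutation p = 0.0493, adjusted p = 0.471), Cfap36 (r = 0.561, rho = 0.573) and Cfap43 (r = 0.543, rho = 0.483, permutation p = 0.0327, adjusted p = 0.444). Without Bad3SA 5 and 6, the tumours farthest from the median of Foxj1, r was 0.747 for Dnaic2 and 0.782 for Cfap43 but -0.0241 for Cfap36, whose relation rested on those tumours. The lowest were Cfap45, a protein inside the doublet (r = -0.751, rho = -0.706, permutation p = 0.0089, adjusted p = 0.424, and -0.587 without those tumours), and Cfap97 (r = -0.667, rho = -0.706, and -0.235 without them).

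**Figure D5:**
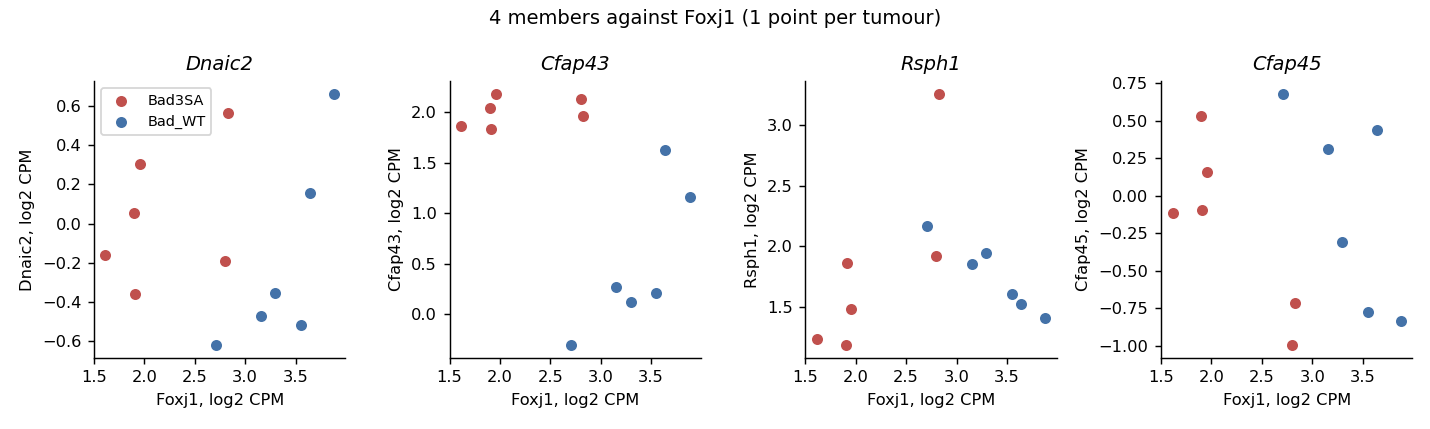
Log2 CPM of Dnaic2, Cfap43, Rsph1 and Cfap45 against log2 CPM of Foxj1, 1 point per tumour, for Bad3SA and Bad_WT. All Bad3SA points of Cfap43 sit above the Bad_WT points, and those of Rsph1 slope upward in Bad3SA (r = 0.793) and downward in Bad_WT (r = -0.968).

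Rsph1, chosen after its values were seen, had correlations of opposite sign in the genotypes. Its r with Foxj1 was 0.793 among Bad3SA tumours (exact permutation p = 0.00972, n = 6) and -0.968 among Bad_WT tumours (exact permutation p = 0.00417, n = 6), both unadjusted and drawn from 38 members. Bad3SA 5 held the highest Bad3SA value of both genes, 9.53 CPM of Rsph1 and 7.06 CPM of Foxj1, and the difference between the genotypes was not tested. These signs were not particular to Rsph1. With Foxj1, r was 0.686 in Bad3SA and -0.639 in Bad_WT for Cfap410, 0.631 and -0.630 for Cfap126, and 0.865 and -0.339 for Rsph9. Dnah17 had the reverse (-0.252 in Bad3SA and 0.763 in Bad_WT), and Dnah2 was positive in both (0.489 and 0.235).

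Other genes of the motile axoneme, taken from lists of components outside the 4 name prefixes, held 1 gene that passed among 55 tested (1.82%), a share close to the 1.38% of all genes. Ttc25, which encodes a part of the docking complex that anchors outer arms to the doublet, rose in Bad3SA. It had 2.13, 4.00 and 4.54 CPM in Bad3SA tumours, against 1.05, 1.55 and 2.16 CPM in Bad_WT tumours, and only Bad3SA 2 at 2.13 and Bad_WT 1 at 2.16 overlapped. The log2 fold change was 1.23 (SE 0.25, edgeR adjusted p = 0.0309). In its list of dynein light, intermediate and docking genes 11 were tested, 1 rose, none fell and the median log2 fold change was 0.02.

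In the list of central apparatus genes 13 were tested and none passed, with 10 positive and 3 negative and a median of 0.21. Spag17, a scaffold of the central pair, had 0.0122, 0.231 and 0.596 CPM in Bad3SA tumours, against 0.670, 1.83 and 2.32 CPM in Bad_WT tumours. Every Bad3SA tumour lay below every Bad_WT tumour, and Bad3SA 1 to 3 lay at or below 0.0302 CPM, under the worth of 3 counts (log2 fold change -2.71, SE 0.77, edgeR adjusted p = 0.117). Ccdc113, a linker between spokes and the nexin link, had 0.487, 2.97 and 11.9 CPM in Bad3SA tumours, against 0.164, 0.534 and 1.02 CPM in Bad_WT tumours. Its high values were in Bad3SA 4, 5 and 6 (log2 fold change 2.96, SE 0.76, adjusted p = 0.0815), and none of the 10 ruler and nexin link genes passed.

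Of 11 dynein assembly factors 9 were positive and 2 negative, the median was 0.19 and none passed. Zmynd10, required to assemble the arms, had 0.579 ± 0.13 CPM in Bad3SA and 0.320 ± 0.085 CPM in Bad_WT (0.86, SE 0.26, edgeR adjusted p = 0.149). Of 18 tested regulators of ciliogenesis 1 fell, Foxj1, and the median was -0.14. None of 10 tektins and inner doublet genes passed, with 7 positive and a median of 0.24.

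Genes of the primary cilium, which some cells of the mammary gland build, were examined as RNA, and the organelle itself was not measured. All 45 genes of its structure and transport were tested, none passed, 17 were positive and 28 negative, and the median log2 fold change was -0.13. Their summed level, not scaled for gene length, ran from 1027 to 1206 CPM in Bad3SA tumours and from 1032 to 1274 CPM in Bad_WT tumours. Cc2d2a, of the transition zone, had the smallest p, at 11.96 ± 2.06 CPM in Bad3SA and 17.2 ± 2.04 CPM in Bad_WT (log2 fold change -0.52, SE 0.14, edgeR adjusted p = 0.102). None of 8 tested Hedgehog readout genes passed (2 positive, 6 negative), and none of 10 Notch genes.

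Markers of other cells varied widely between tumours, and the ranges of the genotypes overlapped. All 7 adipocyte markers had positive log2 fold changes (median 1.84), with summed levels from 8.93 to 337.7 CPM in Bad3SA tumours and from 2.84 to 88.4 CPM in Bad_WT tumours. Of 9 tested skeletal muscle markers 8 were negative (median -1.88), with sums from 2.83 to 173.0 CPM in Bad3SA and from 3.39 to 1206 CPM in Bad_WT. The median sum was nevertheless higher in Bad3SA, at 21.2 CPM against 13.1 CPM in Bad_WT. Of 10 squamous markers 7 were negative (median -0.92), with sums from 17.6 to 200.5 CPM in Bad3SA and from 8.84 to 701.3 CPM in Bad_WT. Here too the median sum was higher in Bad3SA, at 61.4 CPM against 21.5 CPM in Bad_WT. Of 21 luminal markers 14 were negative (median -0.23), with sums from 9747 to 14661 CPM in Bad3SA and from 8856 to 19749 CPM in Bad_WT. No gene of these 4 lists passed. Median log2 fold changes were 0.41 for basal, 0.29 for fibroblast, 0.04 for endothelial, -0.10 for Schwann and neuronal and 0.23 for immune markers, and no gene there passed. The part of these cells in the results above was not tested.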

How the data were processed

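Polyadenylated RNA of 12 tumours was sequenced as paired 100-base reads, and the authors deposited whole-number read counts per gene. Trimming with fastp 0.23.1 and alignment software STAR 2.7.9a, with DESeq2 and the build GRCm38, are listed in the submitters' processing notes. How reads were counted, with which annotation and whether by strand, is not stated, so reads shared by overlapping or antisense genes stay ambiguous. The authors' deposited table holds, per gene, a mean signal of normalised counts, p-values, a Wald score, and a log2 fold change with its error. Its direction, Bad_WT over Bad3SA, was settled by correlation with the counts (Spearman -0.997 across 18019 genes).

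The members and gene lists were chosen with earlier results of these data known. Counts were filtered (filterByExpr), TMM-scaled and tested with edgeR 4.0.16 (robust quasi-likelihood, Benjamini-Hochberg, threshold 0.05). SE was obtained from the fold change and its F statistic. Ratios to Foxj1 used limma 3.58.1 on log2 CPM with a prior count of 2, and correlations used 100000 permutations. Named members were Foxj1 and Mcidas, called members, the 5 lowest and 5 highest fold changes, the highest per length in each role, the 5 highest and 3 lowest correlations with Foxj1, and in each cilium list the called genes or otherwise the smallest p. Other genes were added after their values were seen. Positions, exon lengths and overlaps come from GENCODE vM21 (GRCm38), and copies were sought with BLAST 2.17.0. The tests were checked on simulated counts. Alternatives were DESeq2 1.42.0, its size factors, voom with quality weights, other filters, dispersion and prior count, age, a replicate block, and leaving out single tumours. R 4.3.3, Python 3.11.15 and matplotlib 3.10.9 were used.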

Additional observations from a re-analysis of the deposited data

Results flagged for a closer look

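Among the named members tested, 40 groups of 6 tumours were examined for a tumour far from its group. There were 6 such values, each the highest of its group, and Bad_WT 3 was flagged for Rsph9, Cfap36 and Cfap300. Chance gives about 1 in 20 groups for normally distributed values. CPM were used without logs and some members were named for extreme fold changes, so no excess over chance can be read from this. Cfap74 was at 4.47 CPM in Bad3SA 4, with the next tumour at 1.16. Rsph9 was at 25.8 CPM in Bad3SA 5 (next 11.2) and at 22.5 CPM in Bad_WT 3 (next 9.18). Bad_WT 3 was also far above its group for Cfap36, at 53.8 CPM (next 37.1), and for Cfap300, at 10.6 CPM (next 7.37). Dnaic1 was at 3.25 CPM in Bad_WT 1 (next 1.36).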

How the results depend on the processing

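Of all genes, 249 were called in the edgeR test as reported, 163 with at least 1 CPM in 6 tumours, 73 with end-point age, 105 with the replicate block, 991 with DESeq2, 573 with voom, and 147 to 315 with each tumour left out. Members called numbered 1 in the edgeR test, 0 with the 1 CPM filter, 0 with age, 4 with DESeq2 (Foxj1, Cfap43, Dnah8 and Dnah17), 3 with voom (Foxj1, Cfap43 and Dnah8) and 0 to 1 with a tumour left out. Foxj1 was at -1.15 with the 1 CPM filter (adjusted p = 0.0581), -1.57 with age (0.0829) and -1.34 to -1.06 with a tumour left out. The median over members was -0.0935 with age and 0.00541 to 0.22 with a tumour left out. Members differing from Foxj1 numbered 29 to 35 and genes 13778 to 16212 with a tumour left out. With age and with the replicate block, alternatives chosen after seeing the data, members differing from Foxj1 numbered 28 and 33. Signs turned with age for Cfap36 (-0.14), Rsph9 (-0.62), Dnah7c (-0.22) and Dnaic2 (-0.0935), and with voom for Cfap36 (-0.0955), Rsph9 (-0.23), Dnah7c (-0.39) and Cfap45 (0.058). With a tumour left out they turned for Dnaic1 (-0.0207 to 0.71), Rsph9 (-0.27 to 0.69), Dnah7c (-0.0294 to 0.33) and Cfap45 (-0.33 to 0.031). Correlations with Foxj1 turned without Bad3SA 5 and 6 for Dnah8 (0.0299), Cfap36 (-0.0241), Rsph9 (-0.31), Cfap300 (-0.0281) and Dnah7c (-0.0279), and for Dnah17 with DESeq2 size factors (-0.00965). The cause was not tested. Deviations of same-numbered tumours correlated with r of -0.27 to 0.28, and only pair 6 was mutually best. These values show no general pairing by number but cannot exclude a shared origin, and the edgeR test as reported took the tumours as unpaired. The floor of 3 counts covers counting error only, and 36 of 60 members were above it in every tumour.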
